A study of Mus musculus with 190 samples.

Results

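The genes described here are the 10 mouse genes of MHC class II presentation: H2-Aa, H2-Ab1, H2-Eb1, H2-DMa, H2-DMb1, H2-DMb2, H2-Oa, H2-Ob, Cd74 and Ciita. They were found by gene symbol among the 55414 genes of the deposited count table, in which each of the 10 symbols matched 1 row, and all 10 passed the filter on low counts that left 18192 genes. Whole blood of male NC/Nga mice, an inbred wild-type strain that can develop skin lesions resembling atopic dermatitis, was sequenced in 190 libraries. Conventionally housed mice made up 9 cohorts with 10 libraries per sampling, first sampled on day 2, 5, 9, 12, 16, 19, 23, 26 or 30 (cohorts 1 to 9 in that order) and again on day 44 (odd cohorts) or day 40 (even cohorts). A single cohort kept specific-pathogen-free (SPF) gave 5 libraries on day 16 and 5 on day 44. Each library carries a dermatitis score, which was 0 in 7 of 90 conventional libraries of the second sampling, in 58 of 90 of the first and in all SPF libraries. The labels give no age, and the model is limited to 1 strain, 1 sex and 1 SPF cohort.

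MHC class II molecules carry peptides from engulfed material to the cell surface, where CD4 T cells read them. In blood they are borne mainly by B cells, and also by monocyte subsets and dendritic cells. H2-Aa and H2-Ab1 encode the alpha and beta chains of I-A, and H2-Eb1 encodes the beta chain of I-E. Cd74, the invariant chain, guides new class II molecules to the endosome and blocks their groove. H2-DM, made of H2-DMa with a beta chain from H2-DMb1 or H2-DMb2, exchanges the remnant of Cd74 for peptide. H2-DO, made of H2-Oa and H2-Ob, restrains H2-DM and is found chiefly in B cells. Ciita, the class II transactivator, does not bind DNA itself but is recruited by factors on the X and Y boxes of class II promoters. It is needed for full transcription of class II genes.

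The promoters show what these genes share in sequence. The RefSeq promoter table, on build GRCm38.p6, held 8 promoters of 7 of the 10 genes (250 bases before to 50 after the start), with 2 for H2-DMa. A Y box core, GATTGG, was found in 7 of the 8 on either strand, against 16.1% of all 32851 promoters. A form of the X box, AAC followed after 2 further bases by ATGATG, was found in 4 of the 8 on either strand, against 0.137% of all promoters. In those 4 the motifs do not overlap. Both motifs were written down after the windows had been read, so the shares are a description with no test. In the windows printed 5′ to 3′ on the gene's own strand, the Y box and, where present, the X box are in capitals. They are shown because these boxes are a sequence feature that several of the genes share.
H2-DMb2: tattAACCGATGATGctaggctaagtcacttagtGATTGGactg
H2-DMb1: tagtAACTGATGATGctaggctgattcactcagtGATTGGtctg
H2-Ob: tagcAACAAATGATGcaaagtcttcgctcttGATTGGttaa
H2-Eb1: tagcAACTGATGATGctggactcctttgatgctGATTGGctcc
H2-Aa: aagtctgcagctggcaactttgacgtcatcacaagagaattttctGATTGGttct
H2-Oa: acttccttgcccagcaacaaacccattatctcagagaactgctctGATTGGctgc

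The printed windows lie on chromosome 17 of GRCm38.p6, at chr17:34145124-34145167 for H2-DMb2, chr17:34153095-34153138 for H2-DMb1, chr17:34238816-34238856 for H2-Ob, chr17:34305774-34305816 for H2-Eb1 and chr17:34092290-34092344 for H2-Oa. All of these are on the plus strand, and H2-Aa is on the minus strand at chr17:34287863-34287917. The gap between the X box and the Y box was 19 bases in both H2-DMb2 and H2-DMb1, 16 in H2-Ob and 18 in H2-Eb1. Of the 2 H2-DMa promoters, 1 held a Y box core, 199 bases before the start, against 44 to 91 bases in the genes printed. A match of letters is not a binding site, and a promoter without a match to the X box letters says only that these letters are not in the window.

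The libraries held between 21444129 and 71967299 counts (median 36448181.5). Globin RNA had been depleted before sequencing. The median share of counts left on globin genes was 3.58% in cohorts 1 to 4, 7.83% in cohorts 6 to 9 and 3.59% in SPF libraries. In cohort 5 it was 6.84% over both samplings, with 3.72% on day 16 and 7.03% on day 44. SPF replicate 3 of day 16 reached 45.3%. In the first sampling every day stands for a single cohort, so that a difference between days and one between cohorts cannot be told apart. One library of the first sampling, replicate 1 of cohort 8 on day 26, stood apart from its 9 cohort mates. Its sum of 12 B cell genes was 251 CPM (counts scaled to library size) against 570 to 787 CPM in the others, and its sum of 8 neutrophil genes was 9285 CPM against 1148 to 3153 CPM.

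Levels between genes were compared per length, in the TPM values that the authors deposited (the share of transcripts, scaled for gene length and library size). H2-Aa had the highest level, with a median of 43.04 TPM over the 190 libraries, and it was the highest of the 10 genes in every library but 1. H2-Eb1 followed at 20.4 TPM, H2-Ab1 at 17.7 TPM and Cd74 at 16.7 TPM. H2-Eb1 exceeded H2-Ab1 except in 19 libraries, while H2-Ab1 failed to exceed Cd74 in 68 of 190, so the order of those 2 varied between libraries. The H2-DO and H2-DM chains were spread widely. H2-Ob had a median of 11.1 TPM and its partner H2-Oa 0.812 TPM, the lowest of the 10 genes in every library but 1. H2-DMb2 had 6.46 TPM, H2-DMb1 2.56 TPM and H2-DMa 2.35 TPM, and Ciita stood at 1.87 TPM. H2-DMb1 and H2-DMb2 may share reads: their transcripts were 94.6% identical over 1219 aligned bases, 13.7% of the 100-base windows of H2-DMb1 and 12.9% of those of H2-DMb2 occur in the other, and their counts were whole numbers in only 9 libraries. The genes lie on chromosome 17 of GRCm39, from H2-Oa at chr17:34311314-34314208 to H2-Eb1 at chr17:34524841-34535648, except Ciita at chr16:10297923-10346282 and Cd74 elsewhere. How well the NC/Nga alleles of these polymorphic genes align to the reference genome was not tested.

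All 10 genes were highest in SPF blood on day 16 among the 20 group medians, and all 10 had their lowest first-sampling median on day 23. H2-Ab1 is given as an example of the course. Its median was 78.8 CPM in cohort 1 at day 2 (60.9 to 99.1 CPM), 88.99 CPM at day 5 (69.1 to 107.9 CPM), 66.7 CPM at day 9 (53.1 to 91.2 CPM) and 63.04 CPM at day 12 (31.3 to 99.5 CPM). The medians of the later cohorts were 60.6 CPM (day 16, 30.3 to 80.8 CPM), 59.003 CPM (day 19, 30.4 to 80.2 CPM), 39.33 CPM (day 23, 21.998 to 68.6 CPM), 61.8 CPM (day 26, 24.99 to 66.5 CPM) and 52.3 CPM (day 30, 28.7 to 69.7 CPM). The medians of days 26 and 30 were above that of day 23. The course was not the same in every gene. Medians of H2-DMb1 were 11.1 CPM at day 2, 12.4 CPM at day 9 and 11.6 CPM at day 19. At day 23 its median was 7.27 CPM. The difference among the 9 days passed the test in all 10 genes (57% of all genes), with edgeR adjusted p from 1.39e-08 in H2-Ob to 0.000573 in Ciita. In the second sampling the 9 cohort medians of H2-Ab1 lay between 38.02 CPM in cohort 9 and 54.6 CPM in cohort 3. These were below its first-sampling medians of days 2 to 19 and of day 26. SPF blood had an H2-Ab1 median of 105.6 CPM on day 44 and 107.6 CPM on day 16. For each of the 10 genes the library ranges of all 19 pairs of groups that were neighbours in the order of medians overlapped; since the order was set by the medians themselves, this is a description.

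**Figure D1:**
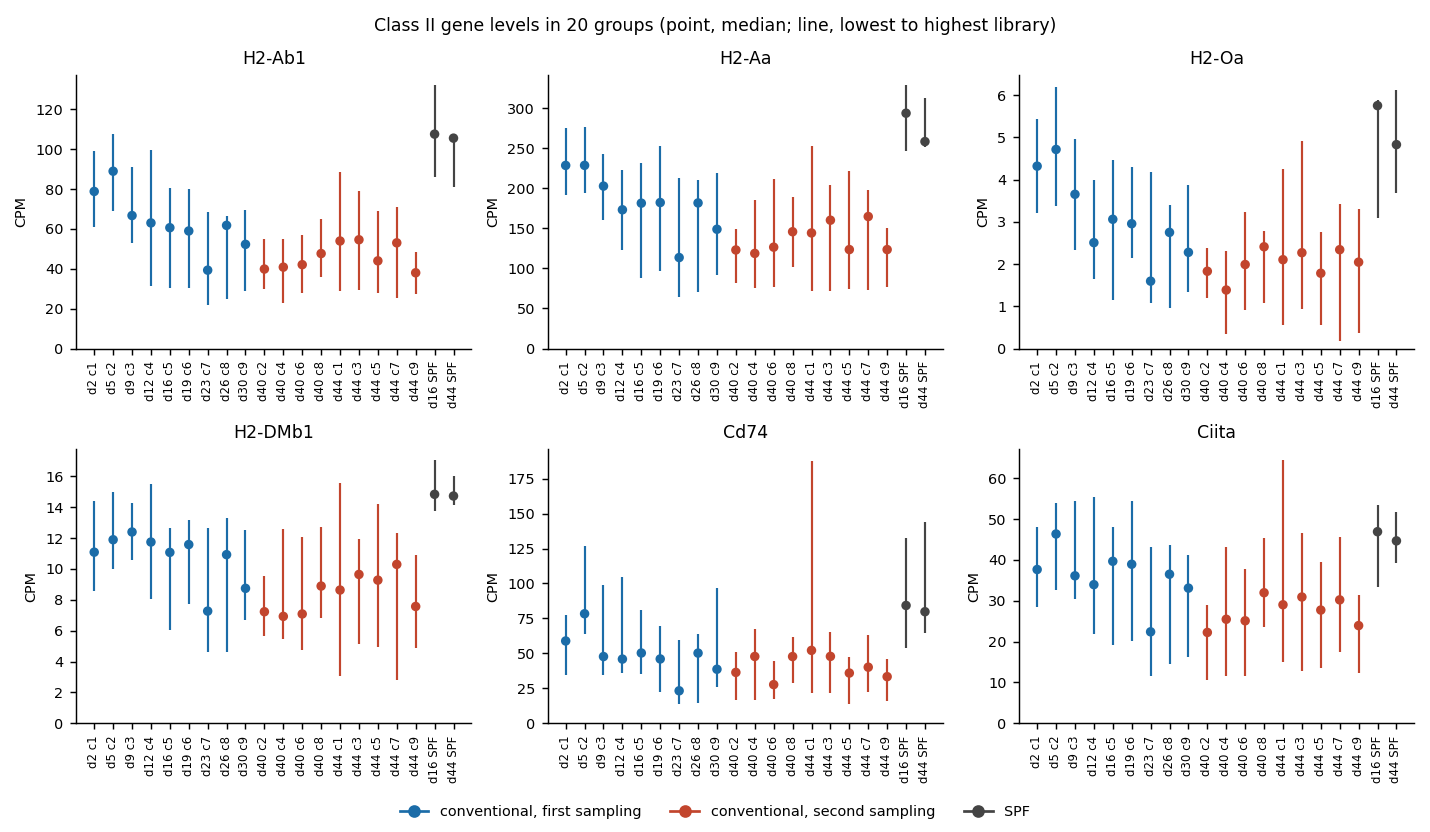
Levels of 6 class II genes in CPM (counts scaled to library size) in the 20 groups, conventional cohorts by day and then SPF at the right of each panel. Points are medians and lines run from the lowest to the highest library (10 libraries per conventional group, 5 per SPF group). SPF blood of day 16 has the highest median in each panel, and day 23 (cohort 7, marked d23 c7) has the lowest median of the first sampling.

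On day 44, conventional libraries (n = 50) had lower levels of all 10 genes than SPF libraries (n = 5), by 0.65 to 1.24 on the log2 scale. H2-Ab1 was 25.3 to 88.7 CPM with a median of 46.3 CPM in conventional blood, and 80.8, 105.6, 106.5, 107.8 and 82.5 CPM in the 5 SPF libraries. Of the 50 conventional libraries, 48 lay below the lowest SPF library. Its fitted difference, conventional minus SPF, was −1.02 ± 0.18 (log2 ± SE, edgeR quasi-likelihood test, adjusted p = 5.22e-05). Cd74 fell most, by 1.24 on the log2 scale (SE 0.25, edgeR adjusted p = 0.000361), with 14.1 to 187.4 CPM, median 39.2 CPM, in conventional blood, and 64.2, 144.025, 138.9, 68.7 and 79.8 CPM in the SPF libraries. The highest conventional library, replicate 6 of cohort 1 with a score of 0, lay above every SPF library, and without it Cd74 fell by 1.31 (adjusted p = 2.31e-05) and 10 of 10 genes were called. The chain of H2-DO with the lower level, H2-Oa, fell by 1.21 (SE 0.29), and its partner H2-Ob by 0.98 (SE 0.20).

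The other classical chains were lower by 0.97 (H2-Aa) and 1.07 (H2-Eb1) on the same scale. The H2-DM genes were lower by 0.87 (H2-DMa), 0.76 (H2-DMb1) and 1.03 (H2-DMb2). Ciita moved least, by −0.65 ± 0.21 (adjusted p = 0.0203), with 12.4 to 64.4 CPM, median 29.5 CPM, in conventional blood, and 39.3 to 51.7 CPM, median 44.7 CPM, in SPF blood. All 10 of 10 genes were called lower at an adjusted p under 0.05, against 10.2% of the 18192 genes tested. The median of the 10 was −0.9996, and over all genes −0.02. In none of the 10 were conventional and SPF libraries without overlap (0.066% of genes had conventional libraries all below SPF).

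B cell genes fell as well. All 12 genes of the B cell list (among them Cd79a, Cd79b and Ms4a1) were lower on day 44, with a median of −0.99. Their summed level was 175.8 to 883 CPM, median 453 CPM, in conventional blood, and 821 to 1054 CPM, median 913 CPM, in SPF blood. In bulk blood, fewer cells of a type and less RNA per cell cannot be told apart. With the mean of the B cell list as a covariate, edgeR called 0 of the 10 class II genes on day 44 (DESeq2 was not run with it), 3 had an unadjusted p under 0.05, and the median was −0.16. Of all 18192 genes, 73 were called lower and 272 higher with this covariate, against 1861 and 1995 without it. The 8 neutrophil genes were all higher, with a summed level of 351 to 15068 CPM in conventional blood, median 4652 CPM, against 382 to 724 CPM, median 696 CPM, in SPF blood. The part of these cell changes in the class II result was not tested beyond the covariate. The SPF mice are 1 cohort, so no p here measures the spread between SPF cohorts, and housing and cohort cannot be told apart. Without SPF replicate 2 or 3, Ciita was no longer called (9 of 10 genes were called lower, with 1244 and 845 of all 18192 genes). Against cohorts 1 and 3 alone, whose globin shares were like those of SPF, 8 of 10 were called lower (1535 of all genes).

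On day 16, when 8 of the 10 cohort 5 libraries still had a score of 0, the direction was the same but only H2-Ab1 was called. H2-Ab1 was 30.3 to 80.8 CPM, median 60.6 CPM, in cohort 5, and 85.96, 107.9, 107.6, 101.4 and 132.015 CPM in the 5 SPF libraries, so the groups did not overlap. Its difference was −0.87 ± 0.18 (edgeR adjusted p = 0.0146), and 0.154% of all genes were called lower. The other 9 genes were not called, with values from −0.25 in Ciita to −0.77 in H2-Oa, and 9 of the 10 had an unadjusted p under 0.05. H2-Aa (88.4 to 231 CPM in cohort 5 against 247 to 329 CPM in SPF libraries), H2-DMb1 and H2-Ob were likewise without overlap, in all 4 of 10 genes against 0.247% of all genes. H2-Ab1 was no longer called without SPF replicate 5, where 27 of all genes were called in either direction, against 86 with all 30 libraries. Nor was H2-Ab1 called in a fit of the 14 libraries with under 5% globin counts, which called 11 of all genes. That smaller fit had 8 of the 10 genes at an unadjusted p under 0.05. Its median of the 10 was −0.69, against −0.72 in all 30 libraries. DESeq2 called 5 of the 10 genes and 449 of all genes.

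**Figure D2:**
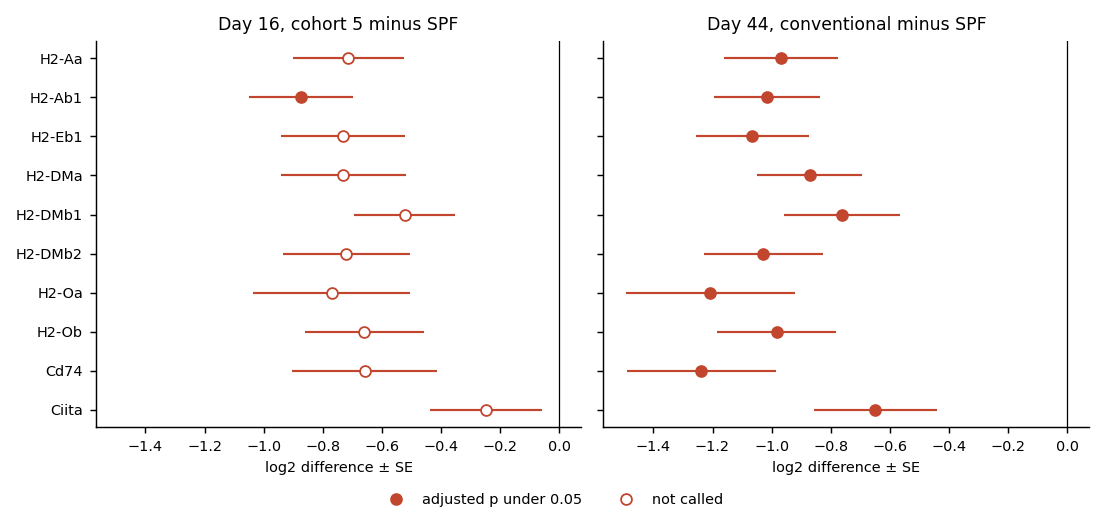
Differences between conventional and SPF blood on day 16 (cohort 5, n = 10, against n = 5) and day 44 (5 cohorts, n = 50, against n = 5), in log2 units with standard errors from edgeR. Every point is below 0; on day 16 only H2-Ab1 is filled (called), and on day 44 all 10 genes are filled.

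The same cohorts also allow the change between the 2 days within each housing. In cohort 5, day 44 against day 16, 4 of the 10 genes fell (3.88% of all genes fell): H2-Oa by 0.78 (SE 0.23), H2-Eb1 and Cd74 by 0.65 each, and H2-Ob by 0.54. H2-Eb1 was 28.7 to 83.97 CPM, median 46.4 CPM, on day 44, and 34.8 to 127.2 CPM, median 75.97 CPM, on day 16. In SPF mice, edgeR called 0 of the 10 genes and 0% of all genes, and DESeq2 called 0 as well. At an unadjusted p under 0.05 there were 0 of the 10 genes and 1031 of all genes in edgeR, and the median change of the 10 was −0.11. The difference between the 2 changes did not pass the test in any of the 10 genes (edgeR, 0% of all genes; 1 of the 10 and 1881 of all genes had an unadjusted p under 0.05; of the 42 genes that DESeq2 called, 0 were among the 10). The median was −0.35, and Cd74 had the lowest p (−0.90 ± 0.35, edgeR adjusted p = 0.386). That the 2 housings change unlike each other was thus not shown. The cohort 5 count rests on the processing: 8 genes were called lower with DESeq2's size factors (978 of all 18192 genes) and 9 by DESeq2 (1227 of all genes). In a fit of 24 libraries, cohort 5 was limited to libraries with 5% or more globin counts, and all 10 SPF libraries stayed. The libraries left out were all of day 16, since those of day 44 had 5.51% or more. That fit called 0 of the 10 genes, and 58 of all genes lower, against 706 in the fit of all 30 libraries. At an unadjusted p under 0.05 it had 8 of the 10 genes and 2744 of all genes. The median of the 10 was −0.53, against −0.49 in all 30 libraries.

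Over the first samplings, a slope per 10 days was negative in all 10 genes, and all 10 were called (25.8% of all genes were called lower). The slopes ran from −0.14 ± 0.04 in H2-DMb1 to −0.36 ± 0.05 in H2-Oa (log2 per 10 days), with a median of −0.29. Against day 2, edgeR called 0 of the 10 genes lower at day 5 (0.126% of all genes; 1 of the 10 had an unadjusted p under 0.05, Cd74, which was higher) and 0 at day 9 (1.2%; 0 unadjusted). It called 2 lower at day 12 (3.56%), 2 at day 16 (4.26%), 5 at day 19 (12.9%) and 10 at day 23 (16.7%). There were 7 at day 26 (14.3%) and 7 at day 30 (16.7%); DESeq2 was not run on these single days. H2-Ob was −0.01 ± 0.17 on day 5 and −1.16 ± 0.17 on day 23 (adjusted p = 5.87e-08) relative to day 2. Ciita was called against day 2 on day 23 alone among the 8 days (−0.70 ± 0.17, adjusted p = 0.000688). Cd74, too, was called on day 23 (−1.03 ± 0.22) and was not called on any other day.

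The slope was also fitted within 2 sets of cohorts, and the slopes of the sets were not compared by a test. It was −0.43 at the median within cohorts 1 to 4, where 7 of the 10 genes were called lower (1631 of all 18192 genes). H2-DMb1 was not lower there (0.03 ± 0.09). Within cohorts 6 to 9 the median slope was −0.12, with 8 of the 10 genes below 0. There edgeR called 0 of the 10 genes and 461 of all genes. Of the 10, 0 had an unadjusted p under 0.05, and DESeq2 was not run there. With the shares of globin and mitochondrial rRNA counts as covariates, the median slope was −0.09, against −0.29 without them. With them 4 of the 10 genes were called lower (2403 of all genes). With the mean of the B cell list as a covariate, 1 gene was called lower, H2-Ob (−0.06 ± 0.02), and 2 higher, Ciita (0.11 ± 0.03) and H2-DMb1 (0.06 ± 0.02). Of all genes, 3219 were called lower and 3588 higher with this covariate. Among the 58 libraries with a score of 0 alone, 8 of the 10 genes were called lower (2722 of all genes), with a median slope of −0.30.

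Between the 2 samplings of the same cohorts, all 10 genes fell over the 180 conventional libraries, against 30.6% of all genes that fell. H2-Ob changed most in standard error terms, by −0.60 ± 0.07 (edgeR adjusted p = 1.36e-13), with 10.96 to 64.04 CPM, median 29.5 CPM, in the second sampling and 12.6 to 75.6 CPM, median 49.3 CPM, in the first. H2-Oa fell by 0.60 (SE 0.09), H2-DMb2 by 0.54, H2-Eb1 by 0.48, H2-Aa by 0.44 and H2-Ab1 by 0.43. H2-DMa fell by 0.40, Ciita by 0.35, H2-DMb1 by 0.34 and Cd74 by 0.31 (SE 0.09, adjusted p = 0.0012). The ranges of the 2 samplings overlap in each of the 10 genes. With the mean of the B cell list as a covariate, Cd74 (0.22 ± 0.06) and Ciita (0.15 ± 0.03) were called higher and H2-Ob (−0.05 ± 0.02) lower, and the other 7 were not called. Of all 18192 genes, 3437 were called higher and 2419 lower with this covariate.

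The fall was not the same in all cohorts, in a fit of the 18 groups. In cohort 2, day 40 against day 5, all 10 genes fell (21.8% of all genes), from −0.74 in H2-DMb1 to −1.42 in H2-Oa. The number called lower was 6 in cohort 1 (15.1% of all genes), 5 in cohort 3 (10.2%), 7 in cohort 4 (14.7%), 3 in cohort 5 (4.98%) and 7 in cohort 6 (9.69%). It was 0 in cohort 7 (1.45%), 0 in cohort 8 (0.313%) and 0 in cohort 9 (0.572%). At an unadjusted p under 0.05, edgeR had 2 of the 10 genes in cohort 7, 0 in cohort 8 and 6 in cohort 9, and DESeq2 was not run on single cohorts. In cohort 7, whose first sampling is day 23, 9 of the 10 genes were higher in the second sampling without a call (the highest, Cd74, 0.52 ± 0.24, adjusted p = 0.233). The change differed among the 9 cohorts in all 10 genes by an interaction test (35.3% of all genes). The fall of cohorts 6 to 9 was smaller than that of cohorts 1 to 4 in 9 of 10 genes, by a median of 0.44 (25.3% of all genes differed), Cd74 being the exception (0.18 ± 0.17, edgeR adjusted p = 0.477). Cohorts 1 to 4 were first sampled on days 2 to 12 and cohorts 6 to 9 on days 19 to 30. The samplings of cohorts 1 to 4 thus lay further apart, and fewer of their first libraries had a score above 0. The part of either in the difference was not tested. Within cohorts 6 to 9 alone, edgeR called 0 of the 10 genes, with 5 at an unadjusted p under 0.05 (1156 of all 18192 genes were called lower). DESeq2 was not run there. Within cohorts 1 to 4 all 10 were called lower (5681 of all genes).

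**Figure D3:**
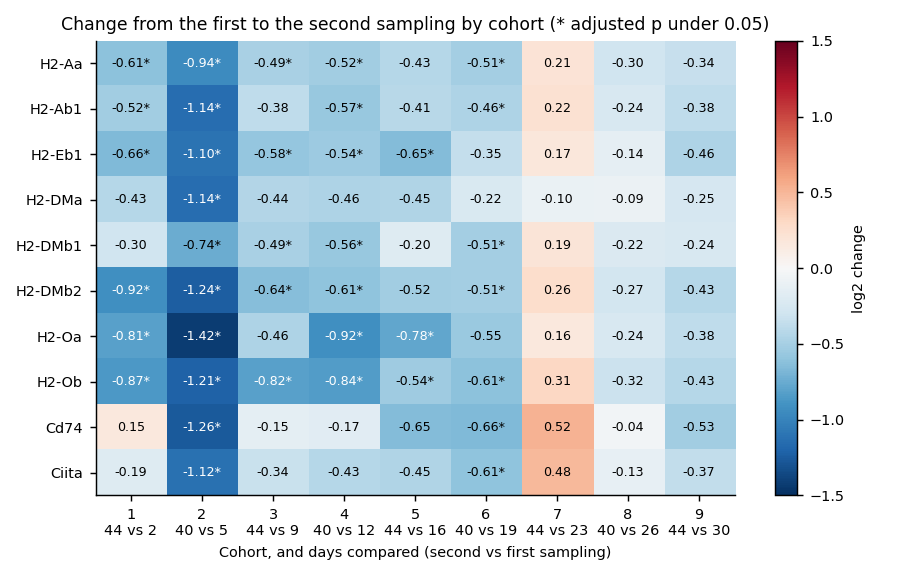
Change between the samplings of each conventional cohort (columns) for the 10 genes (rows), second against first, in log2 units (10 libraries per sampling). Stars mark an adjusted p under 0.05. Cohort 2 has the deepest blue in most rows, and cohort 7 is the only column where most values are above 0.

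In the second sampling, levels fell with the dermatitis score in all 10 genes (17.7% of all genes), with cohort as a covariate. H2-DMb1 fell by 0.23 per score unit (SE 0.04, edgeR adjusted p = 1.82e-05), with medians of 11.03 CPM at a score of 0 (8.01 to 15.6 CPM, n = 7), 9.04 CPM at 2 (4.91 to 12.6 CPM, n = 27) and 7.19 CPM at 3 (2.83 to 11.95 CPM, n = 39). The slopes of the 10 genes ran from −0.16 in H2-DMa to −0.23 in H2-Ob, with a median of −0.21. Within cohorts 1 to 4, 7 of the 10 genes were called lower (2255 of all 18192 genes). Within cohorts 6 to 9, edgeR called 0 of the 10 and 0 of all genes, while 6 of the 10 and 2582 of all genes had an unadjusted p under 0.05 (DESeq2 was not run there). The median slope there was −0.18, and all 10 were below 0. In the medians by score, Cd74 did not follow a simple order: it had 32.3 CPM at a score of 0, 42.4 CPM at 1 and 37.4 CPM at 3. Without replicate 6 of cohort 1, the library of 187.4 CPM at a score of 0, the slope of Cd74 was −0.15 ± 0.06 (adjusted p = 0.0474), and it was −0.21 ± 0.06 with it.

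Among first-sampling libraries of days 12 to 30 (n = 60), the slopes were also negative in all 10 genes, and 3.86% of all genes were called lower. Cd74 fell by 0.47 per score unit (SE 0.11, edgeR adjusted p = 0.00398), and the median of the 10 was −0.34. H2-Ab1 had medians of 60.6 CPM at a score of 0 (30.3 to 99.5 CPM, n = 28), 61.01 CPM at 1 (30.4 to 69.7 CPM, n = 12) and 41.2 CPM at 2 (21.998 to 60.3 CPM, n = 10). Within cohorts 6 to 9 all 10 genes were called lower (504 of all 18192 genes). Without the library of cohort 8 that stood apart (day 26, replicate 1, score 2), 7 of the 10 were called and the median was −0.30; H2-DMa (−0.31, adjusted p = 0.0989), H2-Oa (−0.35, adjusted p = 0.0506) and H2-Ob (−0.30, adjusted p = 0.0510) were no longer called, and 776 of all genes were called in place of 1828. The slopes of the 2 samplings were not shown to differ, with a median difference, second minus first, of 0.15. In edgeR 0 of the 10 genes were called (0% of all genes), and 1 of the 10 and 2345 of all genes had an unadjusted p under 0.05. DESeq2 called 283 genes, 0 of them among the 10. With the mean of the B cell list as a covariate, edgeR called 0 of the 10 genes in either sampling, with 1 in the second and 0 in the first at an unadjusted p under 0.05. Over all 18192 genes the calls fell as well, from 6667 to 529 in the second sampling and from 1828 to 0 in the first. At an unadjusted p under 0.05 there were 3201 and 859 of all genes with this covariate.

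**Figure D4:**
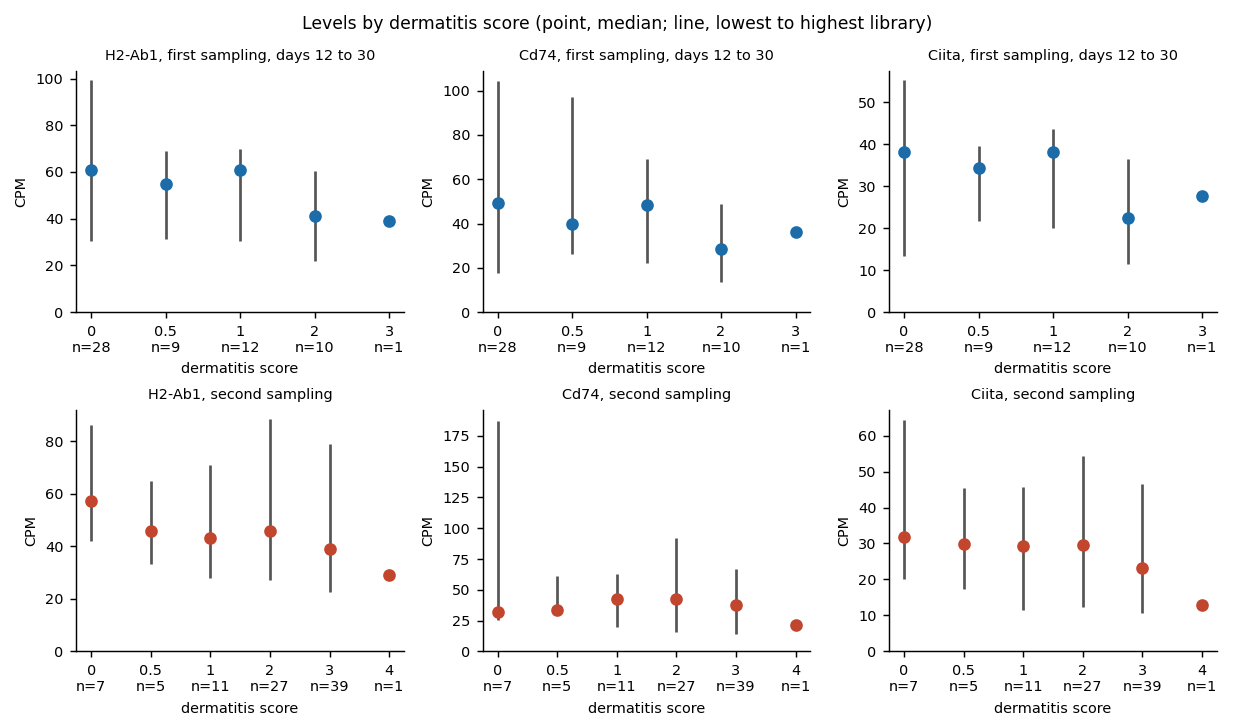
Levels of 3 genes by dermatitis score in the first sampling of days 12 to 30 (upper row) and the second sampling (lower row), in CPM. Points are medians, lines run from the lowest to the highest library and n is the number of libraries. In the second sampling the medians of H2-Ab1 and Ciita are lower at a score of 3 than at 0, while that of Cd74 is higher (32.3 CPM at 0 and 37.4 CPM at 3).

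Since the B cell list fell alongside, the log2 ratio of each gene to the mean of 12 B cell genes was compared, so that unequal change would show. Permutation tests gave 18 calls among 56 ratios, adjusted over all 56. Ciita was higher relative to the B cell list in all 4 comparisons. The difference, conventional minus SPF, was 0.38 on day 44, with a mean ratio of 0.16 ± 0.19 (SD, n = 50) against −0.22 ± 0.13 (SD, n = 5; two-sided exact permutation test, adjusted p = 0.000338). It was 0.35 on day 16, with −0.05 ± 0.10 (SD, n = 10) against −0.41 ± 0.21 (SD, n = 5; exact permutation test, adjusted p = 0.00497). For the second against the first sampling it was 0.22, with 0.13 ± 0.19 against −0.09 ± 0.22 (SD, n = 90 each; permutation within cohorts, adjusted p = 9.33e-05, the unadjusted p being the smallest that 100000 permutations can give). Per score unit it was 0.08 (permutation within cohorts, adjusted p = 0.00056).

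Other ratios were called too, and in the main analysis every called ratio to the B cell list was above 0. Uncalled ratios lay on both sides of 0. H2-DMb1 fell less than the B cell list on day 44, by 0.29 (exact permutation test, adjusted p = 0.0324), a call lost without SPF replicate 2, 3, 4 or 5 (adjusted p = 0.0618 to 0.0721). On day 16, 7 of the 10 ratios were below 0 without a call, the lowest being H2-Ab1 (−0.27, exact permutation test, adjusted p = 0.0590), which was called without SPF replicate 1 (−0.39, adjusted p = 0.0040). In the second sampling, Cd74 (0.26), H2-DMb1 (0.23), H2-DMa (0.22), H2-Ab1 (0.15), H2-Aa (0.13) and H2-Eb1 (0.10) were higher relative to the list, while H2-DMb2 (0.04), H2-Oa (0.03) and H2-Ob (−0.02) were not called. The 3 genes without a call included both chains of H2-DO; that these change exactly as the B cell list does is not shown by a p that misses the threshold. Pairs of genes moved apart too: relative to H2-DMb1, H2-DMb2 was lower by 0.19 in the second sampling, and relative to H2-DMa, H2-Oa was lower by 0.19 (adjusted p = 9.33e-05 and 0.00056). The first of these pairs may share reads. Per score unit, H2-Aa, H2-Ab1, H2-Eb1 and H2-DMa were higher relative to the B cell list, and H2-Aa fell against H2-Ab1 by 0.05. A ratio shows unequal change and does not show that a gene stayed level.

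**Figure D5:**
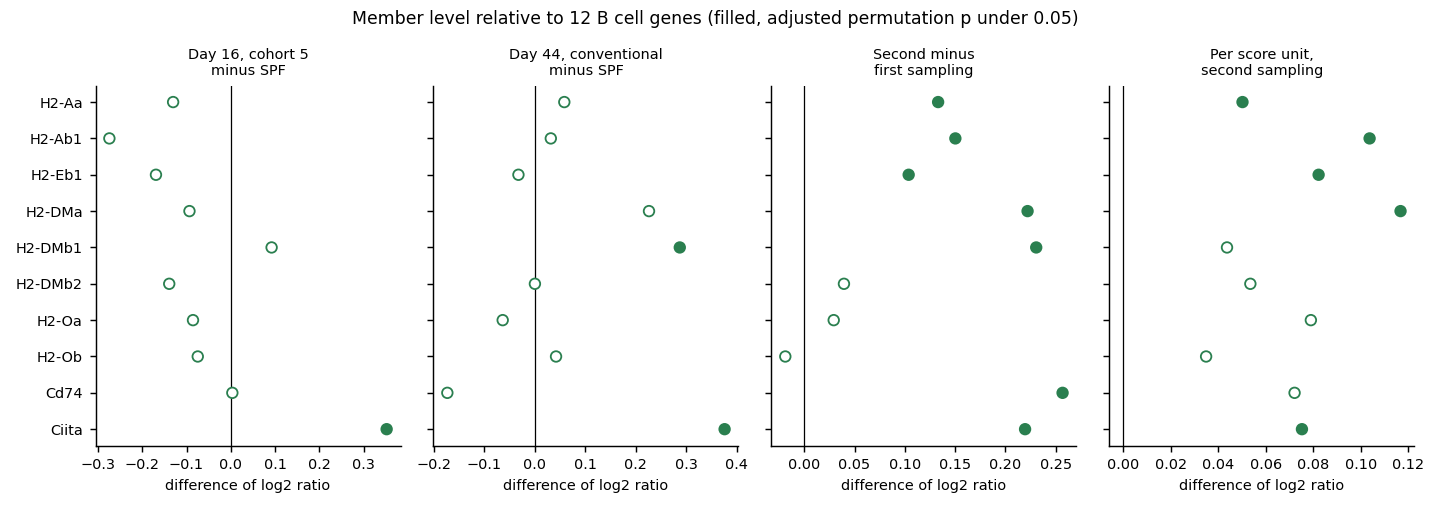
Difference in the log2 ratio of each of the 10 genes to the mean of 12 B cell genes, in 4 comparisons. Filled points passed an adjusted permutation p under 0.05. Ciita is filled in each of the panels, and H2-DMb2, H2-Oa and H2-Ob are open in each. With a pseudocount of 0.1 in place of 0.5, however, H2-Ob is called per score unit (0.04, adjusted permutation p = 0.0335).

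Genes around the class II set moved in unlike ways. Of 16 genes of class II regulation and processing, 4 fell (10.2% of all genes) and 1 rose (11% of all genes) on day 44 against SPF. Those that fell were H2-Ea, the alpha chain of I-E (−0.89 ± 0.19), Ifi30, a thiol reductase of antigen processing (−0.76), Cd83, a surface protein that stabilises class II (−0.71), and Rfx5, a subunit of the X box factor (−0.66). Marchf8, a ubiquitin ligase of membrane proteins, rose by 1.54 ± 0.56, with 155.7 to 2812 CPM, median 418 CPM, in conventional blood, and 169.6 to 285 CPM, median 257 CPM, in SPF blood. Of 5 red cell genes, 4 were also higher on that day (median 1.499), and their part in the Marchf8 result was not tested. On day 16 Ifi30 alone was called (−0.76 ± 0.18).

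Among 9 regulators of Ciita, 4 rose and 3 fell on day 44. Spi1, a myeloid and B cell transcription factor, rose by 1.05 ± 0.27 and the interferon gamma receptor gene Ifngr1 by 0.64. Pax5, a B cell identity factor that is also in the B cell list, fell by 0.99, Irf4 by 0.88 and Irf8 by 0.71. Of 14 class I genes 0 rose and 3 fell on day 44 (Tap2 by 0.49, Tapbpl by 0.46, Psmb8 by 0.36), and the median of the list was −0.14. H2-K1, a class I heavy chain, was not called, with a median of 83.7 CPM in conventional blood and 99.4 CPM in SPF blood. In the second against the first sampling, 7 of 14 class I genes rose (31.4% of all genes rose) and 3 fell (30.6% of all genes), with H2-D1 higher by 0.31. Of the 8 T cell genes 6 fell on day 44 (median −0.49), of the 9 monocyte genes 4 rose and 2 fell (median 0.68), of 7 tested dendritic cell genes 2 fell (median −0.45), and of 4 platelet genes 0 were called (median 0.28).

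The genes whose pattern was most like the mean of the 10 were named by Pearson's correlation. Over 20 group means they included Cd22, Spib, Cyb561a3, Irf8, Fcmr, Snn and Ssrp1, with r from 0.981 to 0.987. Over deviations of the 190 libraries from their group means they included Ighm, Cd22, Fcmr, Cd79b, Hvcn1, Itpr1 and Chst3, with r from 0.928 to 0.956. Among the 45 pairs of the 10 genes themselves, r was 0.840 to 0.991 over group means (median 0.944) and 0.674 to 0.962 over deviations (median 0.815). All points share libraries and scaling, so these values are a description.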

How the data were processed

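Total RNA from tail-vein blood was made into stranded libraries after removal of ribosomal and globin RNA, per the labels' protocols. The expected counts per gene are as deposited by the authors, who used DRAGEN on genome build GRCm39, per the submitters' processing notes; the DRAGEN version, the gene annotation and the counting mode were not given in the sources used here. TPM values, used only to compare levels between genes, are likewise the authors' deposited values. Of the deposited expected counts, 2.86% were not whole, and they were rounded.

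Genes were kept by edgeR's filterByExpr (minimum count 10, minimum total count 15), counts were scaled by TMM, and CPM used the scaled library sizes. edgeR 4.0.16 (limma 3.58.1, R 4.3.3) fitted quasi-likelihood models, with Benjamini-Hochberg adjustment over all genes tested and a threshold of 0.05. DESeq2 1.42.0 was an alternative. The 2 samplings of a cohort were treated as independent, since no label ties replicate numbers to mice. Log2 ratios used CPM plus 0.5 and permutation tests adjusted over 56 tests. Python 3.11.15, numpy 2.4.6, pandas 2.3.3, biopython 1.88 and matplotlib 3.10.9 did the rest. The fitting code was tested on simulated data. Total counts per library, 21444129 to 71967299, limit the precision of genes with low counts.

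Groups come from the labels. The 10 genes and the lists (12 B cell, 16 class II regulation and processing, 9 Ciita regulator, 14 class I, 8 dendritic cell, 9 monocyte, 8 T cell, 8 neutrophil, 5 red cell and 4 platelet genes) were chosen with earlier results of these data known. Named are all 10 genes, up to 3 called genes per direction of the other lists, and the 8 genes most like the mean of the 10; some genes that this rule names are not reported here. The alternatives were another scaling, another test, no filter on low counts, shares of globin and mitochondrial rRNA counts or the B cell list mean as covariates, a replicate block, libraries left out and cohorts apart, and for the ratios a pseudocount of 0.1. No deposited column was left unused, and coordinates are 1-based. The labels number the replicates without saying that each is another mouse, so p-values measure only the spread between these libraries, which may in part be technical.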

Additional observations from a re-analysis of the deposited data

Results flagged for a closer look

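The library of cohort 8, day 26, replicate 1 lay far below its 9 cohort mates in 8 of the 10 genes. It had 71.1 CPM of H2-Aa, 24.99 CPM of H2-Ab1, 23.8 CPM of H2-Eb1, 4.59 CPM of H2-DMb1, 10.4 CPM of H2-DMb2, 14.3 CPM of H2-Ob, 14.3 CPM of Cd74 and 14.5 CPM of Ciita. The dermatitis score of this library was 2. The other flagged libraries stood apart in 1 gene each. H2-DMb1 was 7.71 CPM in cohort 6, day 19, replicate 3, and 10.58 to 13.16 CPM in the other 9 libraries of that group. H2-Oa was 0.171 CPM in cohort 7, day 44, replicate 6, and 0.9954 to 3.426 CPM in the others. H2-Ob was 13.4 CPM in cohort 2, day 40, replicate 8, and 22.73 to 32.7 CPM in the others. Cd74 was high in replicate 10 of cohort 2 on day 5, at 126.9 CPM with the others at 63.58 to 91.83 CPM, and in replicate 2 of cohort 4 on day 12, at 104.5 CPM with the others at 36.2 to 57.15 CPM. Of 200 sets of 1 gene in 1 group, 13 were flagged, 8 of them through the cohort 8 library. Chance would flag about 1 in 20, here 10, if the sets were independent. The 10 genes vary together within groups (median r 0.815), so the 13 cannot be judged against that number.

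The change between the samplings, second against first, differed among the 9 cohorts. The interaction test of edgeR gave an adjusted p of 0.010 for H2-Aa, 0.00055 for H2-Ab1, 0.0092 for H2-Eb1, 0.036 for H2-DMa, 0.028 for H2-DMb1, 0.00061 for H2-DMb2, 0.011 for H2-Oa, 0.00018 for H2-Ob, 0.00028 for Cd74 and 0.00036 for Ciita. The log2 change of cohorts 6 to 9 minus that of cohorts 1 to 4 was 0.41 for H2-Aa, 0.44 for H2-Ab1, 0.53 for H2-Eb1, 0.45 for H2-DMa, 0.33 for H2-DMb1, 0.61 for H2-DMb2, 0.65 for H2-Oa, 0.67 for H2-Ob and 0.36 for Ciita, each with an adjusted p under 0.05. The shares of globin and mitochondrial rRNA counts also differ between these 2 sets of cohorts. So do the days between the samplings and the dermatitis scores at the first sampling. The part of each in the difference was not tested.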

How the results depend on the processing

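On day 16, where 1 of the 10 genes was called, DESeq2 called 5, covariates for the shares of globin and mitochondrial rRNA counts gave 3, the B cell list mean as a covariate 0, libraries with under 5% globin counts 0, and leaving out each SPF replicate 0 to 1. On day 44 (10 called) the B cell covariate gave 0 and leaving out each SPF replicate 9 to 10. For cohort 5, day 44 against day 16 (4 called), DESeq2's size factors gave 8, DESeq2 9, the shares 1 and the B cell covariate 0. Cohort 5 libraries with 5% or more globin counts, fitted with all SPF libraries, gave 0. DESeq2's size factors also turned the split over all genes from 1544 higher and 706 lower to 1382 and 978. The trend over first sampling days (10 called) had 4 calls with the shares (median slope -0.09), 3 with the B cell covariate and 0 within cohorts 6 to 9. Second against first sampling (10 called) had 3 with the B cell covariate and 0 within cohorts 6 to 9. The score slope of the second sampling (10 called) had 0 with the B cell covariate and 0 within cohorts 6 to 9, and that of the first sampling (10 called) 5 with the shares and 0 with the B cell covariate. Where the main count was 0, it was 0 under each alternative run. Over all genes, counts called ran from 11 to 449 on day 16 (main 86), from 345 to 6139 on day 44 (3856), from 543 to 2799 for cohort 5 (2250), from 461 to 12636 for the trend (9519), from 3626 to 14144 for second against first sampling (11293), from 0 to 7294 for the score slope of the second sampling (6667), from 0 to 2262 for that of the first (1828), from 0 to 283 for the difference of these slopes (0), from 0 to 42 for the difference between housings (0) and from 0 to 1 in SPF (0). Ratios called were 18 of 56, with 19 at a pseudocount of 0.1 (where H2-Oa to the B cell list, second against first sampling, turned to -0.07, with 0.03 at 0.5) and 17 to 20 without each SPF replicate.

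With the replicate number as a block, 5 genes were called on day 16 and 8 for cohort 5, and the other counts of called genes were as in the main analysis. No label says what the numbers share, and deviations of same-numbered libraries from their group means had correlations from -0.17 to 0.354 over pairs of 1 cohort, with medians of -0.01 to 0.10.

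Of 660 values of single genes under the alternatives, in the 7 comparisons with a call, 515 kept direction and side of the threshold, 91 fell short of it, 23 newly passed it and 31 turned direction; in the other 3 comparisons 17 of 280 turned. Of the 31, those with the B cell covariate were Ciita 0.2297 on day 16, H2-DMb1 0.0505 and Ciita 0.2060 on day 44, and H2-DMb1 0.1763 in cohort 5. For the trend they were H2-Aa 0.0064, H2-DMb1 0.0624, Cd74 0.0447 and Ciita 0.1129. For second against first sampling they were H2-Aa 0.0075, H2-Eb1 0.0215, H2-DMa 0.0185, H2-DMb1 0.0380, Cd74 0.2244 and Ciita 0.1539. For the score of the second sampling they were H2-Ab1 0.0239, H2-Eb1 0.0431, H2-DMa 0.0137, H2-DMb2 0.0074, H2-Oa 0.0670, H2-Ob 0.0032, Cd74 0.0726 and Ciita 0.0534. For that of the first they were H2-Aa 0.0009, H2-Ab1 0.0032, H2-DMa 0.0046, H2-DMb2 0.0133, H2-Ob 0.0359 and Ciita 0.0092. Within cohorts 6 to 9 the trend turned in H2-Eb1 (0.0122) and Cd74 (0.1294), and within cohorts 1 to 4 in H2-DMb1 (0.0277). The cause was not tested; a covariate made of B cell genes removes what they share with the 10 genes by construction. The alternatives for libraries of 1 globin range, cohorts 1 and 3 alone and single libraries left out were chosen after seeing the data. Low levels of H2-Oa limit its precision.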

Other observations

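H2-Ea, the alpha chain of I-E, was not among the 10 genes, and its deposited row is annotated as a polymorphic pseudogene (GRCm39, chr17:34560933-34563619, minus strand). The mouse strain behind the reference genome is known to lack a working copy. In these NC/Nga libraries its median was 33.5 TPM (3.32 to 89.2 TPM over 190 libraries), above the 20.4 TPM of its partner chain H2-Eb1. On day 44 it had 43.8 to 169.2 CPM, median 91.7 CPM, in conventional blood, and 149.6 to 209.3 CPM, median 168.1 CPM, in SPF blood. Whether the transcript encodes a whole protein in this strain was not tested.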
